A study of Mus musculus with 16 samples.

Results

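The translation initiation factors and aminoacyl-tRNA synthetases were taken as the genes whose annotated symbols begin with Eif1 to Eif6, or consist of one letter and ars, alone or with the suffix 1 or 2, together with Eprs, and the eIF2 kinases were left out. The rule gave 56 genes of 9450 tested, 33 of them with an Eif symbol and 23 synthetases. The Eif symbols also take in repressors of initiation such as Eif4ebp1. Each of the 56 genes had a probe that passed the detection filter. Of their 95 probes with a signal, all 95 passed, and 52 of the 56 genes were detected on all 16 arrays. The arrays measured total RNA of C57BL/6 mice aged 8 weeks. They comprised 7 arrays of control tissue, 4 of the tumor microenvironment at day 4 after inoculation of B16, a pigmented melanoma line of the same strain, and 5 of the tumor microenvironment at day 14. The labels do not say which tissue served as control, whether each replicate was a separate mouse, or how far tumor cells were kept out of the samples. The p-values therefore cover the scatter of these arrays alone, and some of that scatter may be technical. Eif2s1, Eif2s3x, Eif2s3y, Eif4e, Eif4ebp3 and Wars were not analysed here.

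Initiation factors bring the initiator tRNA and the small ribosomal subunit to the start codon of an mRNA. The factor eIF2 carries the initiator tRNA, eIF2B recharges eIF2 with GTP, eIF4 proteins recognise and unwind the capped end of the mRNA, and eIF3 is the scaffold on the small subunit. Aminoacyl-tRNA synthetases load each tRNA with its amino acid, in the cytosol by one set of enzymes and in mitochondria largely by another. When eIF2 is phosphorylated under stress or amino acid shortage, general initiation slows and the transcription factor ATF4 is made, which is known to activate genes of amino acid synthesis and uptake, many cytosolic synthetases and Eif4ebp1.

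The arrays were not alike within their groups. Day 4 array 4 and day 14 arrays 2 and 5 stood apart on the first principal component, which held 71.9% of the variance over all genes, and 15555 to 16663 probes were detected on them against 18468 to 21669 on the other 13 arrays. On these 3 arrays 1 of 12 macrophage markers was detected each time, and 3, 6 and 2 of 19 skeletal muscle markers and 0, 5 and 0 of 12 epidermal markers were detected in that order, while 12 of 12, at least 18 of 19 and 12 of 12 were detected on each of the other 13. The mean log2 signal of the macrophage list was 4.63, 4.88 and 4.70 on the 3 arrays, 9.47 to 10.73 on the 7 controls and 9.40 to 10.42 on the other tumor arrays. All 13 melanocyte markers tested were detected on the 3 arrays, and on 5 of the 7 control arrays as well, and the mean log2 signal of that list ran from 5.96 to 12.07 in controls, 8.46 to 12.17 at day 4 and 8.15 to 12.05 at day 14. Log2 differences and list medians below are therefore given with and without these 3 arrays, and those of single probes and of arrays left out singly or as another pair are given with the 3 included. In bulk tissue RNA, fewer cells of a type and less RNA per cell cannot be told apart.

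Set against controls, neither stage gave a called member. A call needed at least a 2-fold difference and an adjusted p under 0.05 from one limma model over all 9450 genes, with Benjamini-Hochberg adjustment. At day 14, 0 of 56 members were called, where percent called over all genes was 0, and the lowest adjusted p of a member was 0.269. At an unadjusted p under 0.05, 9 members were higher and 1 was lower, which is 16.1% and 1.79% of the members against 6.19% and 11.8% of all genes. The median log2 difference of the members was 0.376, with 44 of 56 above 0, and that of all genes was 0.04, with 52.5% above 0. Without the 3 arrays the member median was 0.1, with 35 of 56 above 0, and that of all genes was -0.039, with 45.1% above 0. There 1 member had an unadjusted p under 0.05, against 2.16% of all genes.

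At day 4, 0 of 56 members were called, where percent called over all genes was also 0, and the lowest adjusted p was 0.75. No member had an unadjusted p under 0.05 by limma, against 0.381% of all genes higher and 0.212% lower. The median log2 difference of the members was 0.176, with 45 of 56 above 0, against 0.052 for all genes. Without the 3 arrays set apart the member median was 0.04 and that of all genes 0.014. Again 0 members had an unadjusted p under 0.05, against 0.138% of all genes. In the comparison of day 14 with day 4, 0 members were called, percent called over all genes was 0, and no member had an unadjusted p under 0.05, against 0.201% of all genes higher and 0.402% lower. The member median there was 0.185 and that of all genes -0.035. Without the 3 arrays the member median was 0.043 and that of all genes -0.056, and 0 members had an unadjusted p under 0.05, against 1.06% of all genes. For no member did the 2 groups separate without overlap in any of the 3 comparisons, against 0.0952% of all genes higher and 0.0847% lower for day 14 with control, 0.0635% and 0.0106% for day 4 with control, and 0.0529% and 0.116% for day 14 with day 4. The 2 comparisons with control share the control arrays.

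**Figure D1:**
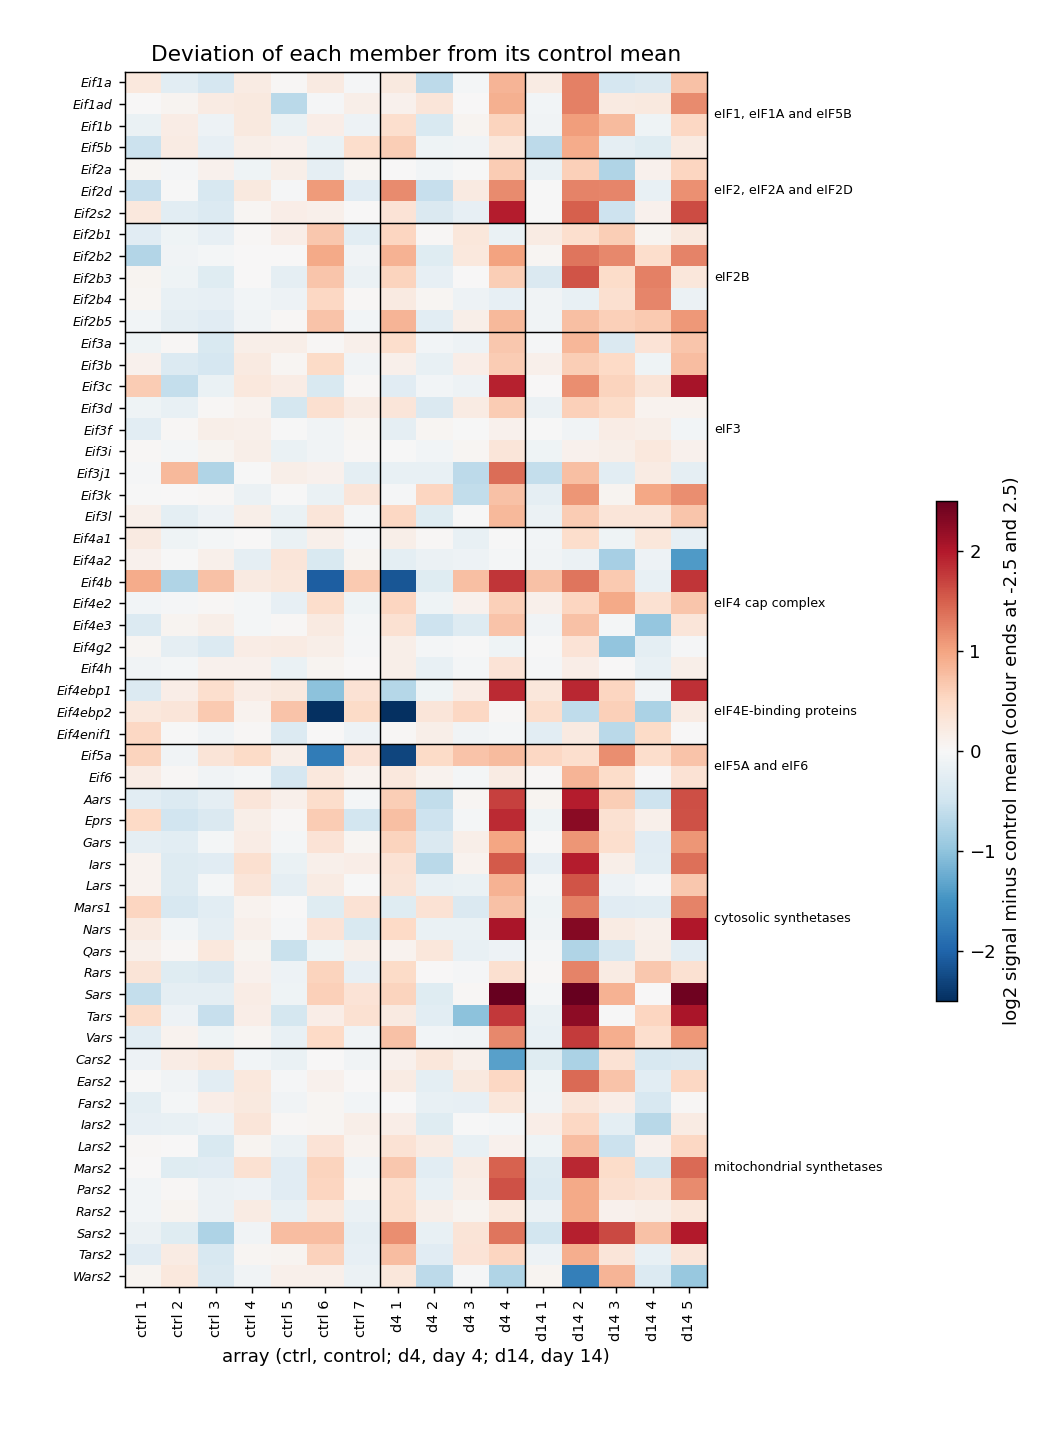
Log2 signal of each of the 56 members on each of the 16 arrays minus the mean of the 7 control arrays for that member (colour), with members in rows grouped by role and arrays in columns grouped by condition. Day 4 array 4 and day 14 arrays 2 and 5 are red over most cytosolic synthetases, and control array 6 and day 4 array 1 are blue at Eif4b, Eif4ebp1, Eif4ebp2 and Eif5a.

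Most cytosolic synthetases read highest on the 3 arrays set apart. Of 12 measured, 11 were higher at day 14 than in controls, and their median log2 difference was 0.672, against 0.04 for all genes. None of the 12 was called, and 3 of them, Vars, Rars and Sars, had an unadjusted p under 0.05. Without the 3 arrays the median was 0.069 and 8 of 12 were above 0, against -0.039 and 45.1% for all genes. All 12 are named here because the group is described whole, a choice made after their values were seen.

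Sars, the seryl-tRNA synthetase, had the widest log2 difference of the group. Its log2 signal in controls had a lowest value of 8.50, a median of 8.99 and a highest of 9.68, and at day 4 it was 9.64, 8.78, 9.12 and 11.74 on arrays 1 to 4. At day 14 it was 9.03, 11.78, 9.95, 9.09 and 11.52 on arrays 1 to 5. Day 4 array 4 and day 14 arrays 2 and 5 lay above all controls by more than the whole control range, and the other tumor arrays lay within or just above that range. The log2 difference of day 14 from control was 1.185 with a standard error of 0.552 (unadjusted p = 0.0483, adjusted p = 0.269), and it was 0.268 without the 3 arrays.

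Vars, the valyl-tRNA synthetase, had the lowest p of the group. In controls its log2 signal ran from 9.32 through a median of 9.50 to 10.09, and at day 4 it was 10.31, 9.52, 9.49 and 10.78. The day 14 arrays read 9.40, 11.33, 10.50, 10.01 and 10.67. Beside the 3 arrays set apart, day 4 array 1 and day 14 array 3 also exceeded the highest control, while day 14 arrays 1 and 4 did not. These are values of the brightest of 3 probes. On day 4 array 1 the others read 9.01 and 4.57, within their control ranges of 8.44 to 9.03 and 4.56 to 6.87. The dimmest probe read 4.56 on control array 6. The difference of the brightest probe at day 14 was 0.793 with a standard error of 0.307 (unadjusted p = 0.0206, adjusted p = 0.269), and 0.379 without the 3 arrays (unadjusted p = 0.174). With all arrays the 3 probes gave 0.406 to 1.092.

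Tars, which charges threonine, read 5.40 at the lowest, 6.14 at the median and 6.43 at the highest in controls. It read 6.20, 5.71, 4.95 and 7.74 at day 4 and 5.81, 8.21, 5.96, 6.52 and 8.02 at day 14. Apart from the 3 arrays and day 14 array 4, all tumor arrays lay at or below the highest control. Its log2 difference of 0.755 between day 14 and day 4 was the second widest upward among the members (standard error 0.564, unadjusted p = 0.2, adjusted p = 1), and it was 0.478 without the 3 arrays. Against control the difference was 0.928 at day 14 (standard error 0.492) and 0.12 without the 3 arrays.

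Eprs, a fused enzyme that charges both glutamate and proline, read 8.91 at the lowest, 9.42 at the median and 10.03 at the highest in controls. Its day 4 values were 10.14, 8.87, 9.35 and 11.27 and its day 14 values 9.29, 11.66, 9.78, 9.52 and 10.98. The same 3 arrays were the highest, and day 4 array 1 was just above the top control. The difference at day 14 was 0.852 (standard error 0.456, adjusted p = 0.28), and 0.135 without the 3 arrays.

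Qars, which charges glutamine and sits with Eprs in the multisynthetase complex, ran the other way. Its log2 signal in controls had a lowest value of 10.54, a median of 11.16 and a highest of 11.36, with 11.19, 11.38, 10.91 and 10.96 at day 4 and 11.05, 10.35, 10.70, 11.25 and 10.84 at day 14. Only day 14 array 2 lay below the lowest control. The log2 difference at day 14 was -0.258 (standard error 0.19, unadjusted p = 0.194, adjusted p = 0.382) and -0.096 without the 3 arrays, and both of its probes were lower. Against day 4 it was -0.272 (standard error 0.217, adjusted p = 1), and -0.16 without the 3 arrays.

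Among the other cytosolic synthetases, the log2 difference at day 14 was 0.914 for Nars, 0.745 for Aars, 0.599 for Iars, 0.506 for Rars, 0.47 for Gars, 0.413 for Lars and 0.365 for Mars1, which charge asparagine, alanine, isoleucine, arginine, glycine, leucine and methionine. Without the 3 arrays Rars kept 0.307, Nars, Aars and Gars lay at 0.086, 0.052 and 0.044, and Iars, Lars and Mars1 turned to -0.116, -0.065 and -0.22. Measured array by array, 10 of the 12 (83.3%) had their 3 highest values of all 16 arrays on day 4 array 4 and day 14 arrays 2 and 5, against 39.3% of all members (22 of 56) and 18.4% of all genes. Qars and Rars were the exceptions, and for Rars day 14 array 4 and control array 6 read 11.19 and 11.07 against 10.91 and 10.88 on day 4 array 4 and day 14 array 5. This count describes arrays set apart by the whole data and carries no test.

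The median deviation of the 12 cytosolic synthetases from their control means was 1.362 on day 4 array 4, 1.851 on day 14 array 2 and 1.310 on day 14 array 5. On the other 13 arrays it lay between -0.284 and 0.488. A list of 20 tested genes of the ATF4 pathway was kept apart from the members and chosen with earlier results of these data known. It had medians of 1.958, 3.258 and 2.147 on the same 3 arrays and -0.409 to 0.240 on the others. Of these 20 genes, 13 (65%) had their 3 highest values on the 3 arrays, against 18.4% of all genes. The ATF4 list was not alone in this. A list of 10 synthetase partners had its highest medians on the same arrays, at 0.850, 0.837 and 0.596. So did a list of 10 mitochondrial translation factors, at 0.706, 1.233 and 0.914. The shares with their 3 highest values there were 50% and 20%. The part that the missing tissue markers have in these values was not tested.

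**Figure D2:**
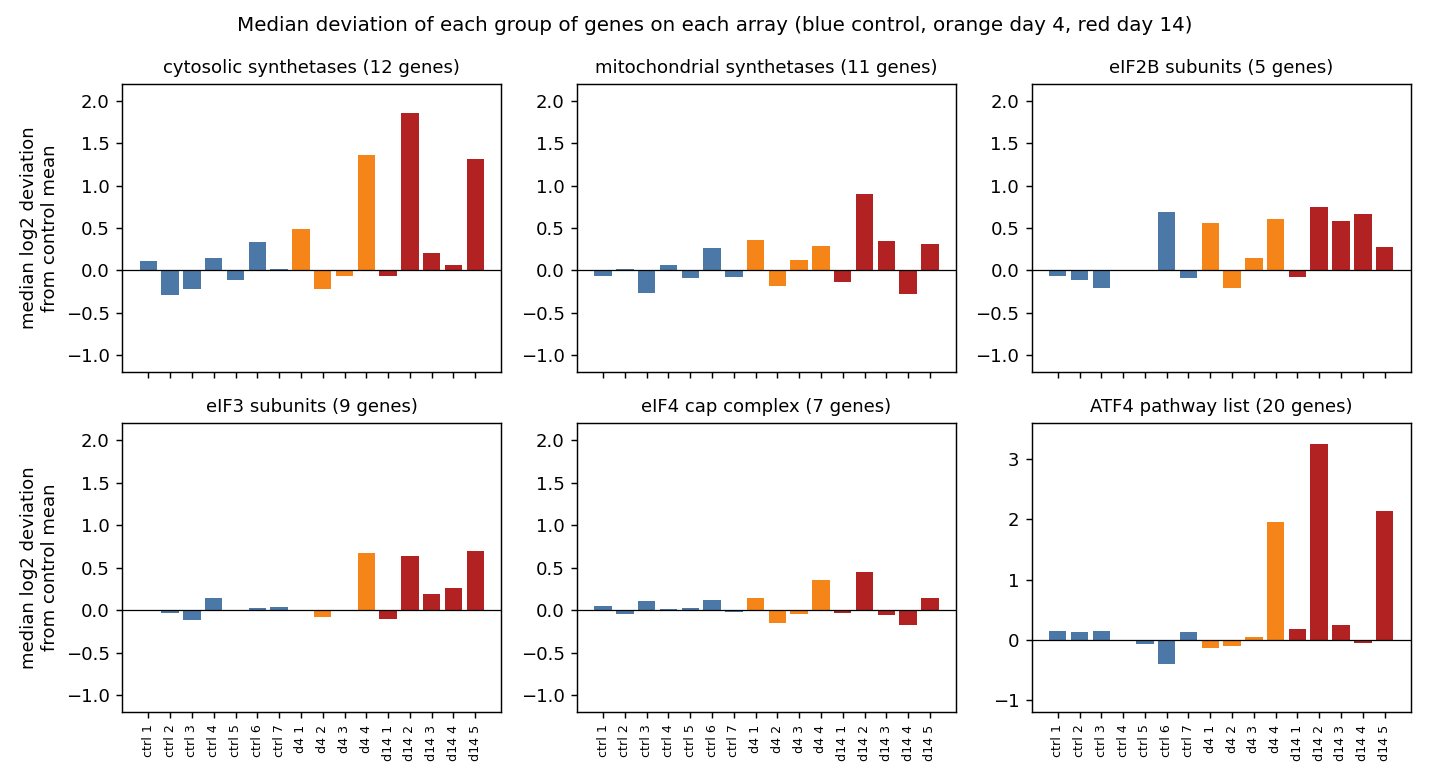
Median over the genes of a group of the log2 deviation from the control mean, for each of the 16 arrays (bars, blue for control, orange for day 4, red for day 14), in 6 panels. The vertical axis of the ATF4 pathway panel has a wider range than the others. The cytosolic synthetases reach 1.362, 1.851 and 1.310 on day 4 array 4 and day 14 arrays 2 and 5, where the ATF4 list also peaks, whereas the eIF2B panel has no such 3 peaks.

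Most cytosolic synthetases read high on the same arrays as the ATF4 list, which was not alone in peaking there. The promoters were read for the letters TGATGNAA, the core of the element that ATF4 and C/EBP dimers are known to bind. They were also read for TTNCATCA, the same letters on the other strand. The motif and the window of 250 bases before the start were chosen after these values were seen. Of 8 cytosolic synthetases with a promoter in the RefSeq table of GRCm38.p6, 3 held the letters (37.5%), namely Aars, Gars and Tars. Lars, Nars, Rars and Vars had no promoter there and were not read. The share was 6.82% of 44 members with a promoter, 31.6% of 19 genes of the ATF4 list and 3.91% of 27025 genes, and it was 3.45% of 32851 promoters of that length. A match of letters is a description and not a binding site. The 3 promoters with the letters in capitals are shown with those of Sars, whose difference was the widest, and of Qars, which ran the other way, neither of which holds the letters. They are written 5′ to 3′ along the strand of the gene. The windows are chr8:111033592-111033841 for Aars (plus strand, capitals from -112), chr6:55037751-55038000 for Gars (plus strand, from -30), chr15:11399659-11399908 for Tars (minus strand, from -15), chr3:108445260-108445509 for Sars (minus strand) and chr9:108507755-108508004 for Qars (plus strand).
Aars: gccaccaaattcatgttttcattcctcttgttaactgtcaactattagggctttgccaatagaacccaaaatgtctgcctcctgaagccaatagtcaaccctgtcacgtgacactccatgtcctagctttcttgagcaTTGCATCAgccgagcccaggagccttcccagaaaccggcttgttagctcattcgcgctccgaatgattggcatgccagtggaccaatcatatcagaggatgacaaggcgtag
Gars: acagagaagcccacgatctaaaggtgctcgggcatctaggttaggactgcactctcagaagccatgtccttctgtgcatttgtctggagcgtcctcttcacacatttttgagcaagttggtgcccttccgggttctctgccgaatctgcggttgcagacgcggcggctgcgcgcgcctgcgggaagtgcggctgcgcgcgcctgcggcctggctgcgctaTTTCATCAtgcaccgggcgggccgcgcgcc
Tars: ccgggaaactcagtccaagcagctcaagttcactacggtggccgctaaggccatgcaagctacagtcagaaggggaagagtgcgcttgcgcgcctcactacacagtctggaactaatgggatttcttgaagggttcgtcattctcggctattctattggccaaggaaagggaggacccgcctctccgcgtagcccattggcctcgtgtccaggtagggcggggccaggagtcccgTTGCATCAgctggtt
Sars: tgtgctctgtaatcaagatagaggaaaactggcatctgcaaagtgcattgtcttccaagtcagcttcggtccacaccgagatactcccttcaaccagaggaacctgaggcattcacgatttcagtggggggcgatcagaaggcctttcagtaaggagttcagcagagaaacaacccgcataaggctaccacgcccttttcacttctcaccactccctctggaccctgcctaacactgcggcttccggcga
Qars: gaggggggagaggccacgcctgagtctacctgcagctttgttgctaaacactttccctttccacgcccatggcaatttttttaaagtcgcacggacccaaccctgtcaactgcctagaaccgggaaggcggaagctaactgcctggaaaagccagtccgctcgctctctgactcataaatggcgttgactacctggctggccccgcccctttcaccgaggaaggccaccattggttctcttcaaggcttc

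The eIF2B subunits were higher at day 14 both with and without the 3 arrays, though none was called. eIF2B is the exchange factor that recharges eIF2 with GTP and is the step blocked by phosphorylated eIF2. All 5 subunits were measured and all 5 were higher at day 14, against 52.5% of all genes, with a median log2 difference of 0.597. Without the 3 arrays 5 of 5 stayed above 0 at a median of 0.453, and 0 had an unadjusted p under 0.05 by limma. There 45.1% of all genes were above 0. The median deviation of the 5 from their control means was -0.081, 0.588 and 0.661 on day 14 arrays 1, 3 and 4. It was 0.691 on control array 6 and 0.563 on day 4 array 1. All 5 are named because the complex is described whole, after the values were seen. For 0 of the 5 did the 3 arrays set apart hold all 3 of the highest values, against 18.4% of all genes, and 5 genes are too few to set against that share. The single highest value lay on day 14 array 2 for Eif2b2 and Eif2b3 and on day 14 array 5 for Eif2b5. For Eif2b1 and Eif2b4 it lay on control array 6 and day 14 array 4. Control array 6 held the highest control value of each subunit.

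Eif2b2, the beta subunit, had the lowest p of the complex. Its control values had a lowest of 8.89, a median of 9.57 and a highest of 10.57. At day 4 it read 10.48, 9.32, 9.88 and 10.62, and at day 14 it read 9.67, 10.95, 10.81, 10.05 and 10.85. Day 14 arrays 2, 3 and 5 exceeded the highest control, and arrays 1 and 4 lay above 6 of the 7 controls but below control array 6. The difference at day 14 was 0.849 with a standard error of 0.313 (unadjusted p = 0.0157, adjusted p = 0.269), and 0.561 without the 3 arrays (unadjusted p = 0.13).

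Eif2b5, the catalytic epsilon subunit, read 10.44 at the lowest, 10.67 at the median and 11.44 at the highest in controls. The day 4 values were 11.58, 10.47, 10.88 and 11.54, and the day 14 values were 10.64, 11.48, 11.32, 11.39 and 11.81. Without control array 6, which alone reached 11.44, the highest control was 10.76, and 4 of the 5 day 14 arrays lay above that. The difference was 0.597 at day 14 (standard error 0.251, unadjusted p = 0.0308, adjusted p = 0.269) and 0.383 at day 4 (standard error 0.269, adjusted p = 0.75). Without the 3 arrays it was 0.386 at day 14 and 0.241 at day 4, and with all arrays its 3 probes were all higher at day 14.

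For the remaining subunits the log2 difference at day 14 was 0.641 for Eif2b3, 0.307 for Eif2b1 and 0.242 for Eif2b4, with standard errors of 0.304, 0.194 and 0.235. Without the 3 arrays these differences were 0.453, 0.29 and 0.516. Eif2b4 rested on 1 array: it read 11.64 on day 14 array 4 and 10.23 to 10.83 on the other 4, and without array 4 its difference was -0.001. For Eif2b3 the same array read 9.94, second to the 10.25 of array 2.

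Of eIF2 itself, Eif2s2, its beta subunit, was the one measured. It read 10.07 to 10.68 over the 7 controls with a median of 10.45, then 10.75, 10.04, 10.21 and 12.38 at day 4 and 10.39, 11.91, 9.90, 10.51 and 12.03 at day 14. The 3 arrays set apart held its 3 highest values, and the difference at day 14 went from 0.542 (standard error 0.421, adjusted p = 0.402) to -0.138 without them. Eif2d, which can deliver tRNA to the ribosome without eIF2, differed by 0.682 at day 14 (standard error 0.382, adjusted p = 0.288), and by 0.345 without the 3 arrays. Both genes were named after their values were seen.

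Among the eIF4 genes, which act at the mRNA cap, the median log2 difference at day 14 was 0.018, with 4 of 7 above 0, and it was -0.07 without the 3 arrays, with 3 of 7 above 0. Eif4e2 encodes a cap-binding homologue of eIF4E that is known for repressing translation, and it had the lowest unadjusted p of all members. It read 10.71 at the lowest, 10.86 at the median and 11.36 at the highest in controls. The day 4 values were 11.46, 10.80, 11.03 and 11.51, and the day 14 values were 11.04, 11.46, 11.87, 11.30 and 11.61. All 5 day 14 arrays lay above 6 of the 7 controls, and control array 6, at 11.36, lay above arrays 1 and 4, so the groups overlapped. The day 14 difference of Eif4e2 was 0.544 (standard error 0.187, unadjusted p = 0.0106, adjusted p = 0.269). It was 0.491 without the 3 arrays (unadjusted p = 0.0436, adjusted p = 0.967), and 3 of 3 probes were higher, at 0.544 to 0.876. At day 4 it was 0.285 (standard error 0.2, adjusted p = 0.75), and 0.181 without the 3 arrays.

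Eif4a2, an RNA helicase of the cap complex, was the 1 member with an unadjusted p under 0.05 in the lower direction. Control values had a lowest of 12.88, a median of 13.33 and a highest of 13.56. It read 13.03, 13.12, 13.13 and 13.21 at day 4 and 13.18, 13.12, 12.43, 13.14 and 11.85 at day 14. Arrays 3 and 5 of day 14 lay below all controls and the other 3 day 14 arrays lay within the control range. The difference was -0.523 (standard error 0.226, unadjusted p = 0.0346, adjusted p = 0.269), it was -0.349 without the 3 arrays, and its 3 probes gave -0.67 to -0.523. Against day 4 it was -0.38 (standard error 0.258, unadjusted p = 0.162, adjusted p = 1), and -0.177 without the 3 arrays. Its paralogue Eif4a1 differed by 0.072 at day 14 (standard error 0.152, adjusted p = 0.758) and by 0.037 without the 3 arrays, with 13.33 to 13.73 in controls and 13.43, 13.95, 13.40, 13.78 and 13.30 on the 5 day 14 arrays. These are values of the brighter of 2 Eif4a1 probes, and the dimmer one gave 0.542 at day 14 with all arrays.

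Eif4g2, a scaffold that lacks the eIF4E site and is known for cap-independent initiation, differed by -0.182 at day 14 (standard error 0.203, adjusted p = 0.547), and by -0.411 without the 3 arrays (unadjusted p = 0.0799). Against day 4 the difference was -0.176 (standard error 0.233, adjusted p = 1), and -0.44 without the 3 arrays. Day 14 array 3 read 10.57 and the other 4 read 11.32 to 11.91, inside the control range of 11.22 to 11.77 but for array 2. Its probes disagreed, with log2 differences from -0.182 to 0.666. Eif4h, a helper of the helicase, was among the 2 members that varied least over the controls (SD 0.102, n = 7), and it differed by 0.018 at day 14 (standard error 0.139, adjusted p = 0.941) and by -0.07 without the 3 arrays.

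Eif4ebp1 and Eif4ebp2 encode repressors that bind eIF4E until mTOR phosphorylates them. Eif4ebp1 read 9.74 at the lowest, 10.96 at the median and 11.18 at the highest in controls, with 10.06, 10.65, 10.95 and 12.63 at day 4 and 11.05, 12.66, 11.31, 10.68 and 12.59 at day 14. The 3 arrays set apart stood more than 1 log2 unit above all others, and the difference at day 14 was 0.891 (standard error 0.452, adjusted p = 0.271) with them and 0.245 without them. Eif4ebp2 did not share this pattern, with 10.46 on day 4 array 4 and 9.81 and 10.64 on day 14 arrays 2 and 5.

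Eif4ebp2 stood apart on another pair of arrays instead. It read 7.95 on control array 6 and 7.15 on day 4 array 1, where the other 6 controls read 10.53 to 11.14 and the other 3 day 4 arrays 10.46 to 10.95. The day 14 values were 10.87, 9.81, 11.04, 9.65 and 10.64. Its log2 difference was -0.612 at day 4 (standard error 0.703, adjusted p = 0.756) and -0.031 at day 14 (standard error 0.657), and these values rest on the pair: without day 4 array 1 the day 4 difference was 0.28, and without control array 6 it was -1.027. Without the 3 arrays set apart the differences were -0.824 at day 4 and 0.087 at day 14. Eif4enif1, which encodes a protein that binds eIF4E and carries it into the nucleus, read 9.41 at the lowest, 9.76 at the median and 10.28 at the highest in controls and 9.50, 9.99, 9.08, 10.24 and 9.77 at day 14. Array 3 of day 14 lay below all controls and the other 4 lay within their range. The Eif4enif1 difference was -0.042 at day 14 (standard error 0.201, unadjusted p = 0.837, adjusted p = 0.899), and -0.152 without the 3 arrays.

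On the same 2 arrays, 4 of 56 members (7.14%) read below all other 14 arrays, against 3.43% of all genes, and they were Eif4b, Eif4ebp1, Eif4ebp2 and Eif5a. No member read above all the others on both, against 4.28% of all genes. Eif5a, a factor carrying the modified residue hypusine and known for helping ribosomes through difficult peptide bonds, read 10.23 on control array 6 and 9.68 on day 4 array 1, and 11.89 to 13.14 on the other 14. A second probe of the gene read 9.77 and 9.31 on the pair and 11.67 to 12.75 elsewhere. The third probe read 11.89 and 11.87 on the pair, at the upper end of its control range of 11.34 to 11.89, so the low values belong to 2 of the 3 probes. Eif4b, a cofactor of the eIF4A helicase, read 5.82 and 5.74 on the pair with its brighter probe and 7.14 to 9.67 elsewhere, while its dimmer probe read 5.75 and 6.04, above its other controls of 4.81 to 5.58. The brighter Eif4b probe had an SD of 1.061 over the 7 controls, and its difference at day 14 was 0.86 (standard error 0.635, adjusted p = 0.383), and 0.392 without the 3 arrays. Eif4ebp2 had 1 probe, and Eef2, an elongation factor outside the members, read 6.73 on both arrays against 10.05 to 12.83 on the others.

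Both arrays also had the highest T cell, interferon-gamma response and melanocyte lists of the series. The mean log2 signal of the T cell list was 9.22 and 9.32 on the pair and 5.64 to 8.65 on the others, and all 5 of its tested members were detected on both. The interferon-gamma response list stood at 10.99 and 11.11 on the pair and at 7.74 to 10.81 on the others. The melanocyte list stood at 12.07 and 12.17 on the pair and at 5.96 to 12.05 on the others. Among the 13 arrays outside the 3 set apart, the pair had the lowest adipocyte list (8.46 and 8.27, others 8.87 to 10.97), fibroblast list (9.78 and 9.33, others 10.02 to 11.95), macrophage list (9.47 and 9.40, others 9.53 to 10.73) and endothelial list (8.31 and 8.36, others 8.41 to 9.35). The part of these lists in the low readings was not tested. With the pair left out, the Eif5a difference of day 14 from day 4, 0.732 with all arrays (standard error 0.579, adjusted p = 1), was -0.008, and it was 1.076 without the 3 arrays. Against control it was 0.651 at day 14 (standard error 0.505, adjusted p = 0.4), and 0.707 without the 3 arrays.

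**Figure D3:**
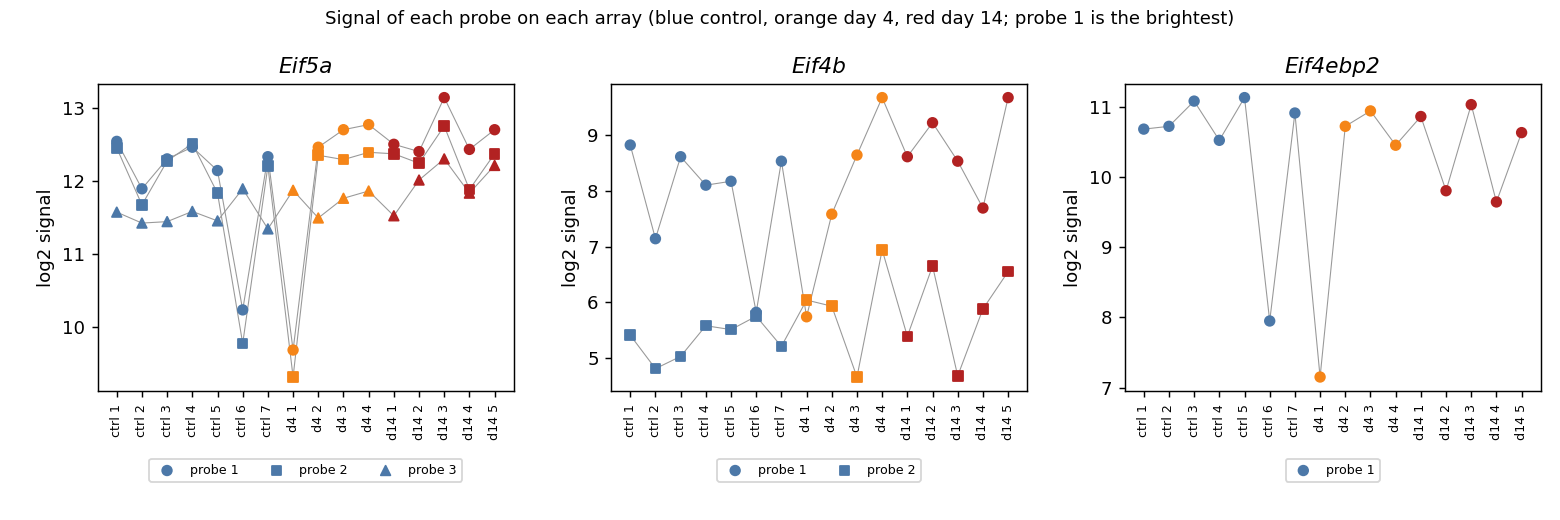
Log2 signal (vertical axis) of each probe of Eif5a, Eif4b and Eif4ebp2 on each of the 16 arrays (points, blue for control, orange for day 4, red for day 14, with 1 marker shape for each probe and thin lines joining the points of a probe only to guide the eye). Control array 6 and day 4 array 1 are low for 2 of 3 Eif5a probes, 1 of 2 Eif4b probes and the Eif4ebp2 probe.

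The subunits of eIF3, the scaffold on the small ribosomal subunit, were mostly a little higher at day 14, with 0 called. Of 9 measured, 8 were above 0 at day 14, the median log2 difference was 0.297, and it was 0.139 without the 3 arrays. Eif3k, a small peripheral subunit, read 8.60 at the lowest, 8.76 at the median and 9.08 at the highest in controls. Its values were 8.74, 9.30, 8.16 and 9.51 at day 4 and 8.54, 9.87, 8.83, 9.73 and 9.93 at day 14. Day 14 arrays 2, 4 and 5 lay above all controls, and arrays 1 and 3 did not. The difference at day 14 was 0.616 (standard error 0.279, unadjusted p = 0.0426, adjusted p = 0.269), and it was 0.269 without the 3 arrays. Against day 4 it was 0.455 (standard error 0.319, adjusted p = 1), and 0.301 without the 3 arrays. Eif3i varied little, with an SD of 0.105 over the 7 controls, and read 13.37 to 13.68 in controls and 13.43 to 13.79 at day 14. It differed by 0.101 (standard error 0.131, adjusted p = 0.607), and by 0.096 without the 3 arrays.

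Eif3c, a core subunit named after its values were seen, read 9.12 to 10.35 in controls, 11.64 on day 4 array 4 against 9.43 to 9.64 on the other 3 day 4 arrays, and 10.88 and 11.77 on day 14 arrays 2 and 5 against 9.73 to 10.27 on the other 3. The difference at day 14 was 0.83 with these arrays and 0.305 without them. Eif6, which keeps the ribosomal subunits apart until the large one matures, differed by 0.342 at day 14 (standard error 0.178, adjusted p = 0.273), and by 0.165 without the 3 arrays.

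**Figure D4:**
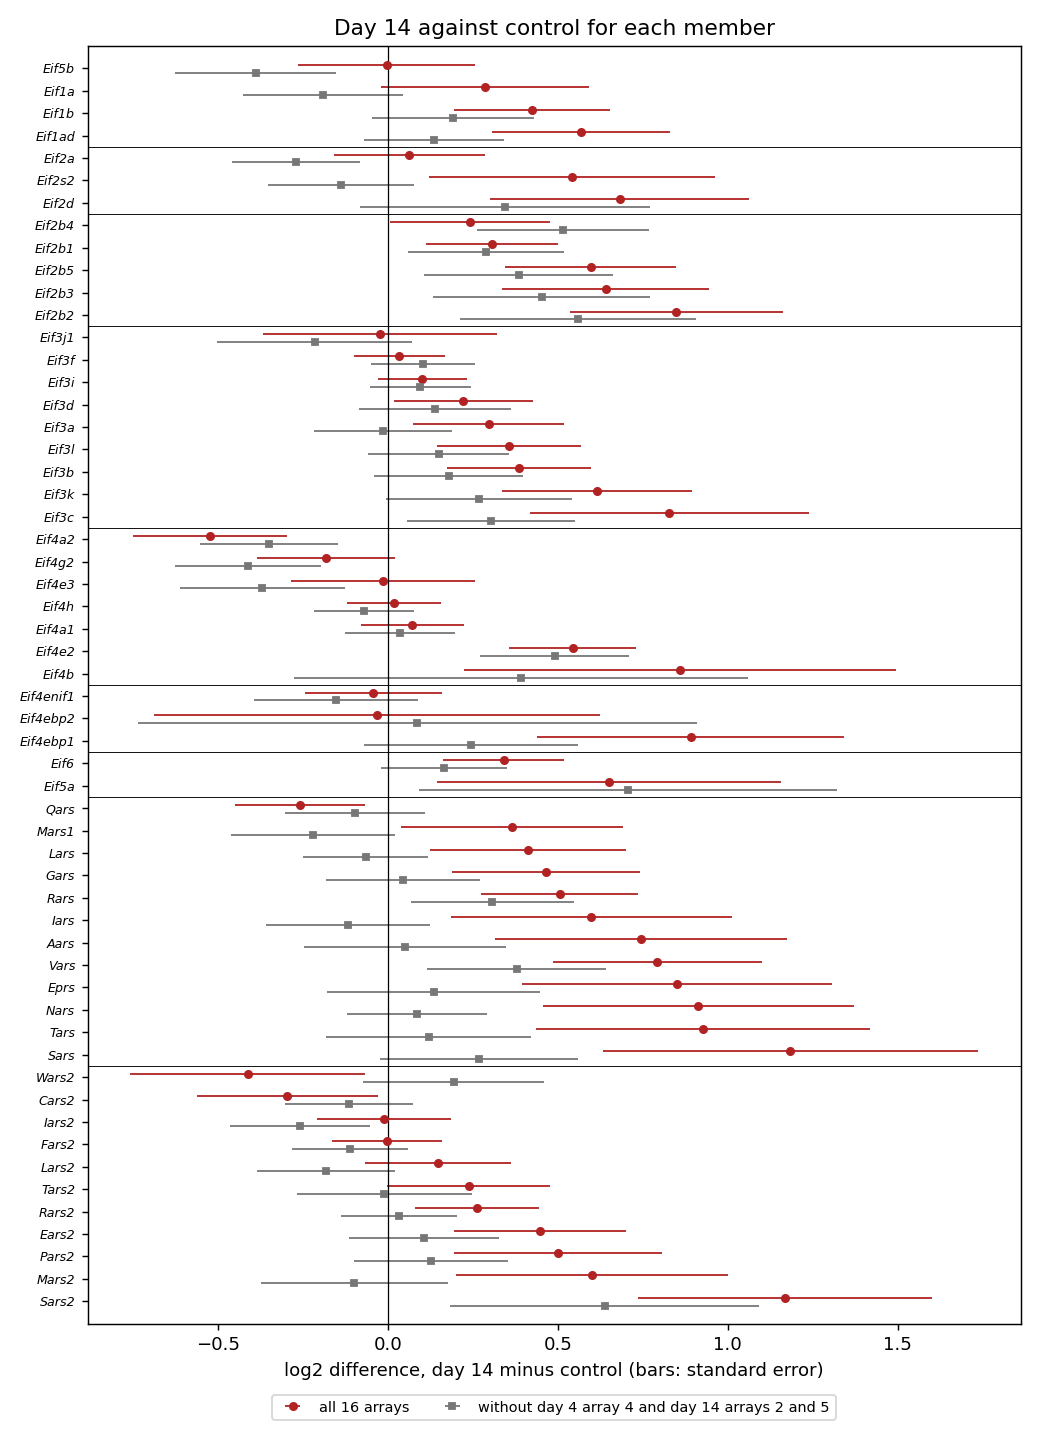
Log2 difference of day 14 from control for each of the 56 members (horizontal axis), with all 16 arrays (red circles) and without day 4 array 4 and day 14 arrays 2 and 5 (grey squares), with bars of 1 standard error and members grouped by role. The cytosolic synthetases move from a median of 0.672 to 0.069, and the eIF2B subunits from 0.597 to 0.453.

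The mitochondrial synthetases were spread to both sides. Of 11 measured, 7 were above 0 at day 14, with a median log2 difference of 0.238, which was -0.010 without the 3 arrays, where the median of all genes was -0.039. With median centring in place of quantile normalization it was -0.004, where the median of all genes was -0.116 in place of 0.04. Sars2, which charges serine in mitochondria, had a wide difference. It read 4.94 at the lowest, 5.57 at the median and 6.48 at the highest in controls, with 6.88, 5.53, 6.03 and 7.05 at day 4 and 5.25, 7.66, 7.36, 6.45 and 7.70 at day 14. Day 14 arrays 2, 3 and 5 lay above all controls and array 1 lay below the control median. Before normalization the Sars2 signal was 174, 242 and 242 on day 14 arrays 2, 3 and 5, against 130 to 229 in controls. Array 2 thus lay within the control range before normalization. The medians of all probes on arrays 2, 3 and 5 were 105.4, 130.9 and 133.5, so Sars2 read near them. Sars2 was detected on 15 arrays. The difference was 1.168 (standard error 0.433, unadjusted p = 0.0162, adjusted p = 0.269), and 0.638 without the 3 arrays (unadjusted p = 0.183).

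Wars2, the mitochondrial tryptophanyl enzyme, was the 1 member whose 3 lowest values of all 16 arrays fell on the 3 arrays set apart, against 20.1% of all genes. It read 6.02 on day 4 array 4 and 5.07 and 5.83 on day 14 arrays 2 and 5, against 6.40 to 7.04 in controls and 6.84, 7.62 and 6.43 on day 14 arrays 1, 3 and 4. Wars2 was detected on 14 of the 16 arrays. Its signal before normalization was 107 and 146 on day 14 arrays 2 and 5, near the medians of all probes there, 105.4 and 133.5. The difference at day 14 was -0.412 (standard error 0.346, adjusted p = 0.431) and turned to 0.194 without the 3 arrays. At day 4 it was -0.288 (standard error 0.37, adjusted p = 0.762), and -0.133 without them. Cars2, the mitochondrial cysteinyl enzyme, read 7.08 on day 4 array 4 and 8.55 to 8.72 on the other 3 day 4 arrays. It differed by -0.296 at day 14 (standard error 0.266, adjusted p = 0.459), and by -0.114 without the 3 arrays. At day 4 it differed by -0.206 (standard error 0.285, adjusted p = 0.771), and by 0.176 without day 4 array 4 and the other 2. At day 14 its 2 probes had opposite signs, at -0.296 and 0.468. Pars2, the mitochondrial prolyl enzyme, had the lowest p of the members at day 4, with a log2 difference of 0.497 (standard error 0.327, unadjusted p = 0.149, adjusted p = 0.75). Its day 4 values were 6.68, 6.07, 6.40 and 7.85 against 5.98 to 6.79 in controls, so array 4 alone exceeded the controls, and without the 3 arrays, of which it is one, the day 4 difference was 0.13 (unadjusted p = 0.576).

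Of the 32 members with several probes, 27 had all probes on the same side of 0 at day 14, and Cars2, Eif3f, Eif4e3, Eif4g2 and Iars2 had probes on both sides.

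Genes around the members were read from lists chosen with earlier results of these data known. None of their genes was called in any comparison. In the ATF4 list, 16 of 20 were higher at day 14, with a median log2 difference of 1.165, and 15 of 20 were higher without the 3 arrays, at a median of 0.166. Ddit4, an inhibitor of mTOR signalling, read 8.47 to 9.33 in controls and 9.34, 11.14, 10.31, 9.71 and 10.90 at day 14, so all 5 day 14 arrays lay above all controls (difference 1.243, standard error 0.324, unadjusted p = 0.00156, adjusted p = 0.269, and 0.747 without the 3 arrays). Chac1, a glutathione-degrading enzyme, differed by 2.028 (standard error 0.694, adjusted p = 0.269), and by 1.259 without the 3 arrays, and read 13.01 on day 14 array 4, where the cytosolic synthetases had a median deviation of 0.063. Stc2, a secreted glycoprotein, and Cebpb, a transcription factor, differed by -0.728 and -0.393, and by -0.167 and -0.245 without the 3 arrays.

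Among the 3 eIF2 kinases tested, Eif2ak3, the kinase of endoplasmic reticulum stress, differed by 0.817 at day 14 (standard error 0.303, unadjusted p = 0.0164, adjusted p = 0.269), and by 0.341 without the 3 arrays (unadjusted p = 0.222). Eif2ak1 differed by 0.192 and Eif2ak2 by -0.279, and by 0.033 and -0.119 without the 3 arrays. Of 10 synthetase partners, 8 were higher at day 14 at a median of 0.417, which was 0.172 without the 3 arrays. There Eef1e1 and Aimp1, which hold the multisynthetase complex together, differed by 0.961 and 0.428, with unadjusted p of 0.0314 and 0.0496, and by 0.303 and 0.305 without the 3 arrays (unadjusted p = 0.357 and 0.199). Of 10 mitochondrial translation factors, 8 were higher at a median of 0.497, which was 0.171 without the 3 arrays. Of 13 elongation and termination factors, 9 were higher at a median of 0.338, which was -0.064 without the 3 arrays. Dhps, which makes the first step of hypusine on Eif5a, differed by 0.771, and by 0.543 without the 3 arrays. Eef1a2, an elongation factor of muscle and neurons, differed by -2.923, and by -1.071 without the 3 arrays, with 4.74 to 5.69 on the 3 arrays and 8.17 to 13.02 on the others. Of 17 genes of mTOR and cap control, 10 were higher at a median of 0.107, which was 0.067 without the 3 arrays. Akt1s1, an mTOR inhibitor, stood at 0.607 and Tsc2, part of the complex that restrains mTOR, at -0.431, against 0.445 and -0.042 without the 3 arrays.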

How the data were processed

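Total RNA was labelled with biotin as cRNA and hybridised to Illumina bead arrays, per the labels' protocols. Per the file headers, the authors' scanner table gives a signal and a detection p-value per probe and array, and the deposited signal is a linear intensity. Below the first 22 lines, the deposited p-values stood 2441 lines below their signals and were realigned, after which p fell with the signal on all 16 arrays with 0 reversals. How the authors made a second deposited table, of log2 values for 16247 probes, remains unstated in the sources used here. It served as an alternative and gave the probes whose symbols were known.

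The neqc function of limma 3.58.1 (R 4.3.3) corrected background from the detection p-values (offset 16), quantile normalized the arrays and took log2. Probes with a detection p below 0.05 on 4 or more arrays entered, and the brightest on average stood for its gene. A single fit with lmFit and eBayes covered the 3 groups, with two-sided tests adjusted by Benjamini-Hochberg over 9450 genes, and it was tested on simulated data. The median standard error was 0.347 for day 4 and 0.324 for day 14 against control, and the number of arrays limits the precision. Full statistics were given for the members with the lowest p in each direction (6 at day 14, 3 at day 4 and 3 for day 14 against day 4), for chosen roles and for the largest and smallest control SD. The other members named in full were added after their values were seen. The members and lists were chosen with earlier results of these data known. Replicate numbers were not used to pair the arrays in the main fit. Alternatives are given with the closing limits. Promoters are those of RefSeq.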

Additional observations from a re-analysis of the deposited data

Results flagged for a closer look

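In the groups of 4 to 7 arrays, 11 of 108 group values of the 36 members screened held an array far from the rest of its group by Dixon's criterion. For independent groups chance gives about 1 in 20. The count cannot be set against that share, because the members share arrays and some were chosen for a large control SD. Control array 6 stood alone for 7 of the 11. It was above the other 6 controls for Eif2b3 at 9.37 (next 8.74), Eif2b4 at 10.94 (next 10.47), Eif2b5 at 11.44 (next 10.76), Eif4e2 at 11.36 (next 10.94) and Pars2 at 6.79 (next 6.31). It was below them for Eif4ebp2 at 7.95 (next 10.53) and Eif5a at 10.23 (next 11.89). Day 4 array 1 was below the other 3 day 4 arrays for Eif4ebp2 at 7.15 (next 10.46) and Eif5a at 9.68 (next 12.46). Control array 7 was above the other controls for Eif3k at 9.08 (next 8.79), and day 4 array 4 was below the other day 4 arrays for Cars2 at 7.08 (next 8.55). Of the day 14 groups, 0 were far apart by this criterion.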

How the results depend on the processing

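Under each of 28 alternatives, 0 members and 0 genes were called in each comparison. Of 1478 recomputed differences over 53 pairs of a named gene and a comparison, 1390 kept their sign and 88 took the other one. The values that took another sign, and the member medians that moved by more than the spread of the control arrays, follow as log2 differences. With median centring in place of quantile normalization, day 4 against control gave 0.3 for the member median, 0.101 for Eif5a, 0.048 for Eif4a2 and 0.15 for Eif4g2. For day 14 against day 4 it gave 0.055 for the member median. With the mean of all probes of a gene, day 4 against control gave 0.183 for Eif4g2. For day 14 against control it gave 0.086 for Cars2 and 0.14 for Eif4g2. With array weights, day 4 against control gave 0.013 for the member median, 0.083 for Cars2, -0.483 for Eif3k, -0.818 for Tars, 0.328 for Eif5a, -0.188 for Qars and 0.049 for Eif4g2. Day 14 against control then gave 0.258 for the member median and -0.031 for Eif4h. Without day 4 array 4 and day 14 arrays 2 and 5, day 4 against control gave 0.04 for the member median, 0.176 for Cars2, -0.032 for Eif3k, -0.358 for Tars and 0.028 for Eif4g2. Day 14 against control here gave 0.1 for the member median, 0.194 for Wars2, 0.087 for Eif4ebp2, -0.07 for Eif4h, -0.116 for Iars, -0.065 for Lars, -0.22 for Mars1 and -0.138 for Eif2s2. Day 14 against day 4 then gave 0.043 for the member median. Without day 4 array 1 as well, day 4 against control gave -0.05 for the member median, -0.02 for Pars2, -0.062 for Eif2b5, 0.408 for Eif4ebp2, 0.206 for Cars2, -0.036 for Eif3k, -0.647 for Tars and 0.597 for Eif5a. Its day 14 values against control were those without the 3 arrays. Without control array 1 and the 3 arrays, day 4 against control gave 0.045 for the member median, 0.153 for Cars2, -0.035 for Eif3k, -0.282 for Tars and 0.037 for Eif4g2. In that setting day 14 against control gave 0.111 for the member median, 0.206 for Wars2, 0.129 for Eif4ebp2, -0.084 for Eif4h, -0.101 for Iars, -0.052 for Lars, -0.13 for Mars1 and -0.093 for Eif2s2. For day 14 less day 4 it gave 0.043 for the member median. With the replicate number as a block, day 4 against control gave -0.043 for Qars and 0.065 for Eif4g2. Without control array 6 and day 4 array 1, a setting added after the data were seen, day 4 against control gave 0.367 for Eif5a and -0.029 for Qars. Against day 4, day 14 then gave -0.008 for Eif5a.

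Leaving out each array in turn, day 4 against control gave 0.04 to 0.31 for the member median, -1.027 to 0.28 for Eif4ebp2, -0.371 to 0.176 for Cars2, -0.032 to 0.417 for Eif3k, -0.358 to 0.571 for Tars, -0.373 to 0.659 for Eif5a, -0.078 to 0.08 for Qars and -0.064 to 0.028 for Eif4g2. For day 14 against control the same gave 0.265 to 0.483 for the member median, -0.316 to 0.018 for Eif4g2, -0.173 to 0.117 for Eif4enif1, -0.446 to 0.156 for Eif4ebp2, -0.022 to 0.14 for Eif4a1, -0.017 to 0.067 for Eif4h and -0.001 to 0.351 for Eif2b4. For day 14 against day 4 the same gave 0.032 to 0.356 for the member median, -0.008 to 1.02 for Eif5a and -0.309 to 0.025 for Eif4g2. Median centring moved the median of all genes at day 14 from 0.04 to -0.116, beside which the medians were 0.659 for the cytosolic synthetases, 0.474 for the eIF2B subunits and -0.004 for the mitochondrial synthetases. Same-numbered arrays correlated from -0.806 to 0.446 after removing group means. Arrays of different numbers correlated from -0.882 to 0.932, and both extremes involved day 4 array 4, which is among the arrays set apart. Such arrays could mask a pairing, so the correlations cannot show whether the numbers mark one. The replicate block moved the member median from 0.376 to 0.409 at day 14. The causes of these shifts were not tested beyond which arrays each setting leaves out. The number of arrays limits the precision, with median standard errors of 0.347 at day 4 and 0.324 at day 14 against control.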
